A study of Mus musculus with 5 samples.

Results

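The 10 genes described here encode chains of the receptors for IL-23, IL-12, IL-27, IL-6, IL-10, IL-17 and interferon gamma. They were chosen by name and function, not by a threshold on their values, from a table of 27179 genes, and all 10 were found there by their NCBI gene identifiers. Transcripts were counted in 2 kinds of sorted lymphocyte from wild type C57BL/6 mice. One kind was group 3 innate lymphoid cells (ILC3; 3 libraries), sorted as CD45+ CD3- CD127+ cells that express a GFP reporter. The other was CD4+ T cells (CD4 T; 2 libraries), sorted as CD45+ CD3+ CD4+ cells. The cells came from 3 mice, the labels do not tie a library to a mouse, and they give no age, treatment or tissue for the sort, although the series title names the intestine. The p-values below therefore rest on variation among libraries, some of which may be technical. The sort genes themselves, such as Il7r for CD127, are not among the 10.

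Many, though not all, of these cytokine receptors pair a chain that is specific for a cytokine with one that several cytokines share. IL-23 binds Il23r together with the shared chain Il12rb1, and IL-12 binds the same shared chain with Il12rb2. Most of these chains work with JAK kinases, which phosphorylate STAT factors when the ligand brings the chains together, while the IL-17 receptor signals through the adaptor Act1 instead. In ILC3 and in T cells that make IL-17, IL-23 is known for sustaining IL-22 and IL-17 production, while IL-12 drives interferon gamma in type 1 lymphocytes. IL-10 restrains inflammation in the gut.

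Libraries held 15123715 to 25956023 counts. Levels are CPM, counts scaled to a common library total on TMM-adjusted library sizes, given as mean ± SD (n = 3 for ILC3 and n = 2 for CD4 T), and a count of 0 allows up to 3 counts, or 0.108 to 0.192 CPM depending on the library. Such limits, and the counting intervals below, cover counting error only. Cd4, a sort gene of the T cells, had 5.06 ± 1.94 CPM in ILC3, against 116 ± 36.7 CPM in CD4 T. The sort also used CD3. Of its genes, Cd3d had 107 ± 41.3 CPM in ILC3, against 620 ± 225 CPM in CD4 T. Cd3g (331 ± 157 against 795 ± 729 CPM) and Cd3e (51.9 ± 27.3 against 128 ± 103 CPM) overlapped between the groups, and neither was called. Summed over 7 ILC3 markers, levels were 24271 to 26571 CPM in ILC3 libraries and 327 to 516 CPM in CD4 T libraries. Il22 made up most of the sum in ILC3 libraries, at 19468 to 21493 CPM. The sum of 9 CD4 T markers overlapped between the groups, at 747 to 1453 CPM in ILC3 libraries and 1329 to 3803 CPM in CD4 T libraries. Of the 9, 5 were called lower in ILC3 (7.21% of all genes tested), 0 higher (6.46%) and 4 were not called. Cd6 was at 0 in all 3 ILC3 libraries. The means of Trbc1 (313 CPM in ILC3, against 136 CPM in CD4 T) and Trbc2 (301 against 217 CPM) stood the other way, and neither was called. Several markers of other cell types were high in the libraries labelled CD4 T. The sum of 8 plasmacytoid dendritic cell markers was 120 to 501 CPM in ILC3, against 3651 to 4515 CPM in CD4 T, and that of 10 myeloid markers was 169 to 254 CPM in ILC3, against 1830 to 2413 CPM in CD4 T. The CD8 genes Cd8a and Cd8b1 summed to at most 1.23 CPM in ILC3 and to 582 to 622 CPM in CD4 T, and 6 NK and ILC1 markers to 526 to 698 CPM in ILC3, against 2313 to 4402 CPM in CD4 T. Of the 5 NK and ILC1 markers tested, Gzma alone was called, as lower in ILC3 (7.21% of all genes tested). Gzma made up most of the CD4 T sum, at 2065 and 3200 CPM. The NK receptor gene Klrb1c stood the other way. It had 60.5, 83.3 and 30.9 CPM in ILC3, against 0.0396 and 4.49 CPM in CD4 T (edgeR adjusted p = 0.0749). Both groups held transcripts of plasma cells (Igkc the highest, at 29852 to 176629 CPM in ILC3, against 35518 to 43803 CPM in CD4 T), with Pax5 at 0 in every library. The sum of 5 epithelial markers was 9.80 to 15.4 CPM in ILC3, against 34.8 and 1918 CPM in CD4 T replicates 1 and 2. Nearly all of the 1918 CPM was Lyz1, at 1881 CPM, which had 11.5 CPM in CD4 T replicate 1. In bulk libraries such as these, fewer cells of a type and less RNA per cell cannot be told apart.

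Across the 12747 genes tested, 6.46% were higher and 7.21% lower in ILC3 (edgeR quasi-likelihood test, Benjamini-Hochberg adjusted p under 0.05). With library size alone as the scaling, the higher genes made up 20.4% of all called genes, in place of 47.3%, and the median log2 difference of all genes was -0.60 in place of -0.10. Of the 10 receptor chains, 9 had enough counts for the test. Il23r and Ifngr1 were higher in ILC3. Il6ra, Il6st, Il10ra and Il10rb were lower, and Il12rb1, Il27ra and Il17ra were not called. Il12rb2 was too low for the filter on low counts. Il6ra and Il10ra passed the filter through their CD4 T counts only, so the counts and the median over the tested chains are descriptions. The calls of Il6ra and Il10ra, also when fitted in other ways, are descriptions as well. The median log2 difference of the 9 was -1.61. The 9 kept their sign under each of the 3 other scalings, and in all 9 the groups did not overlap, which was also so for 55% of all genes tested.

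**Figure D1:**
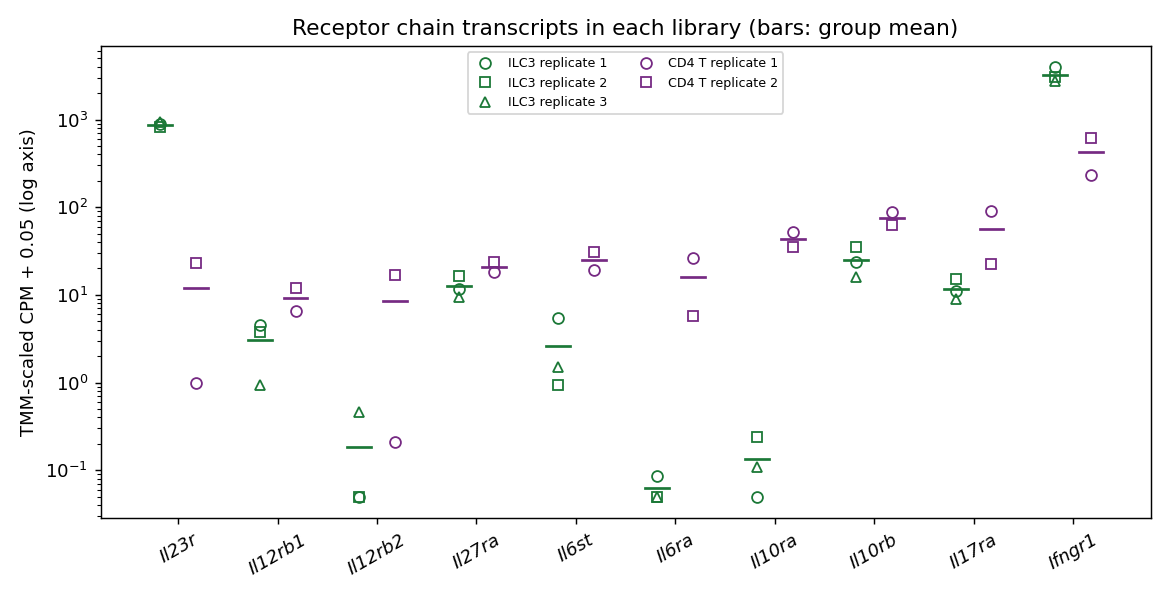
TMM-scaled CPM plus 0.05, on a log axis, of the 10 receptor chains in each of the 3 ILC3 and 2 CD4 T libraries, with a bar at each group's mean. Il23r and Ifngr1 lie above CD4 T in every ILC3 library, and Il6ra and Il10ra lie at or near 0 in ILC3.

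The chains of the IL-23 and IL-12 receptors came apart between the groups: Il23r was abundant in ILC3, its partner Il12rb1 was low in both groups, and Il12rb2 was at or near 0 in ILC3. Il23r and Il12rb2 are neighbours. In GRCm38, Il23r lies on the minus strand at chr6:67422932-67491855, and Il12rb2 on the same strand at chr6:67285986-67376293. They are 46638 bases apart, with 3 other annotated gene entries lying wholly between them. Bases before each start are shown because the 2 neighbours had such different levels in ILC3, and those of Ifngr1 because it was the other chain that was higher in ILC3. Sequences are from RefSeq, GRCm38.p6, 5′ to 3′ on the strand of the gene; capitals mark the motif matches described after them.
Il23r, chr6:67491856-67492105, minus strand: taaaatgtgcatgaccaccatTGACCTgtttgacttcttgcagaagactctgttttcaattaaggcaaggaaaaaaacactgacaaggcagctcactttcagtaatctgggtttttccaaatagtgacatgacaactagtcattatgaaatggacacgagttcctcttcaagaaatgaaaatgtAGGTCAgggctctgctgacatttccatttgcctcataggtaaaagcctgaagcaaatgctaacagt
Il12rb2, chr6:67376294-67376438, minus strand: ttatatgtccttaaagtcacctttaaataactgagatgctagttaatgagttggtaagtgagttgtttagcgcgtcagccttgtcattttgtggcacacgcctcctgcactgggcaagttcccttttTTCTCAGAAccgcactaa
Ifngr1, chr10:19591699-19591948, plus strand: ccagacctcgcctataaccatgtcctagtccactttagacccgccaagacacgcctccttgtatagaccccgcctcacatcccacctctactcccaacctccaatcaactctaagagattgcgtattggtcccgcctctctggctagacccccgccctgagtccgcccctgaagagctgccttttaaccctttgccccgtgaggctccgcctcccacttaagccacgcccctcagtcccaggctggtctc
The start is that of the transcript in the RefSeq promoter table. For Il23r and Ifngr1 it is the outer bound of the gene, and 250 bases are printed. For Il12rb2 it lies 105 bases inside the gene as bounded above, so that only the 145 bases of its window outside the gene are printed. A set of 3 motifs was searched in the 250 bases before each start, on both strands, chosen after the Il23r window had been seen: AGGTCA, a core bound by nuclear receptors, TTCNNNGAA, bound by STAT factors, and TGANTCA, bound by AP-1. The Il23r window held AGGTCA once on each strand, beginning 229 and 66 bases before the start. Of 32851 promoter windows of the same length, 14.02% held this motif at least once and 1.36% at 2 or more places. The Il12rb2 window held TTCNNNGAA once, beginning 123 bases before that start and 18 bases outside the gene, as did 7.02% of all windows at least once, and neither of the others. TGANTCA was in 6.75% of windows and in none of the 3, and the Ifngr1 window held no match. The matches do not overlap each other. Windows were found for 5 of the 10 chains, and those of Il6ra and Il6st held none of the 3 motifs. These are matches of letters, not measured sites.

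Il23r, the chain that is specific for IL-23, had 878, 818 and 925 CPM in ILC3 replicates 1 to 3, against 0.951 and 22.9 CPM in CD4 T replicates 1 and 2. The ILC3 libraries lay close together and far above both CD4 T libraries, which differed widely from each other. The log2 difference was 6.20 (SE 1.36, edgeR adjusted p = 0.0327). Mean levels were 874 ± 54.0 CPM in ILC3, against 11.9 ± 15.5 CPM in CD4 T. Leaving out ILC3 replicate 1, 2 or 3 ended the call (edgeR adjusted p = 0.0786, 0.0748 and 0.0664), and so did robust dispersion (0.0565), while the log2 difference stayed between 6.16 and 6.25. Leaving out CD4 T replicate 2 gave a log2 difference of 9.85, leaving out CD4 T replicate 1 gave 5.26, and both were called. Over the 14 alternatives the edgeR, limma and DESeq2 adjusted p of Il23r ran from 2.69e-05 to 0.0786.

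CD4 T replicate 2, where Il23r was higher, also held more of other transcripts of IL-17-producing cells. Il17f was 34.4 CPM in CD4 T replicate 1 and 269 CPM in replicate 2, and Il22 was 13.3 and 141 CPM. The summed ILC3 markers, which include Il22, were 327 and 516 CPM, with Il7r the highest of them at 212 and 227 CPM. The summed CD4 T markers were 1329 and 3803 CPM. The part of these transcripts in the Il23r values was not tested.

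Il12rb1 (chr8:70808360-70823542, plus strand), the chain shared by the receptors of IL-12 and IL-23, had 4.51, 3.72 and 0.877 CPM in ILC3, against 6.46 and 12.1 CPM in CD4 T. All ILC3 values lay below both CD4 T values, but the difference did not pass the test (log2 -1.61, SE 0.878, edgeR adjusted p = 0.251). Its adjusted p ran from 0.171 to 0.554 over the alternatives. Il12rb2, the chain specific for IL-12, had 0, 0 and 7 counts in ILC3, or 0.409 CPM in replicate 3. It had 4 and 308 counts in CD4 T, or 0.159 and 16.7 CPM. The groups overlapped, and the signal in CD4 T came almost wholly from replicate 2. With no filter on low counts Il12rb2 was tested and had a log2 difference of -5.93 (edgeR adjusted p = 0.0317). Without CD4 T replicate 1 it was also tested, at -6.93 (0.122). In CD4 T replicate 2, which held nearly all Il12rb2 counts, Gzma was 3200 CPM and Tbx21, the factor of type 1 lymphocytes, 3.79 CPM; in replicate 1 Gzma was 2065 CPM and Tbx21 5.15 CPM. Their part in it was not tested. Il12rb2 overlaps Serbp1 on the genome, so counts in the shared stretch are uncertain.

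Levels of different genes were compared per kilobase of exon. In ILC3, Il23r stood at 353, 329 and 372 CPM per kb, and Il12rb1 at 1.10, 0.905 and 0.214 CPM per kb. Within a library the ratio of Il23r to Il12rb1 per kb was thus 321, 363 and 1741 in ILC3, against 0.243 and 3.12 in CD4 T. On the log2 scale this was 9.20 ± 1.36 in ILC3 (SD, n = 3) and -0.20 ± 2.60 in CD4 T (SD, n = 2). The specific chain exceeded the shared chain in all 3 ILC3 libraries and in 1 of 2 CD4 T libraries, and without CD4 T replicate 1 the CD4 T value was 1.64. Such ratios do not depend on library scaling. They were not tested, since with 3 against 2 libraries an exact permutation test gives no p below 0.2.

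**Figure D2:**
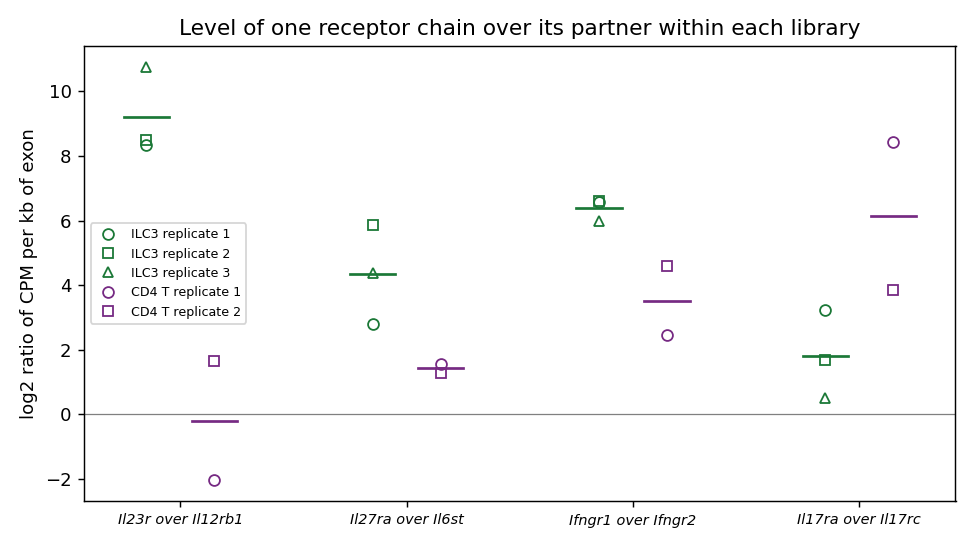
The log2 ratio of CPM per kb of one receptor chain over its partner, within each of the 3 ILC3 and 2 CD4 T libraries, with a bar at each group's mean and a line at equal levels. For Il23r over Il12rb1 the ILC3 libraries lie at 8.33, 8.5 and 10.8, and the CD4 T libraries at -2.04 and 1.64. The highest CD4 T point of Il17ra over Il17rc rests on 2 counts of Il17rc.

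The ligand genes of the IL-12 family were low in both groups. Of the 5 IL-12 family ligand genes, 2 could be tested and neither was called (median log2 difference -2.64). Il12b, which encodes the subunit shared by IL-12 and IL-23, had no count in any library. Ebi3, the subunit of IL-27 and the most abundant of the 5, had 5.30 ± 3.21 CPM in ILC3, against 16.0 ± 1.04 CPM in CD4 T (log2 difference -1.59, edgeR adjusted p = 0.174).

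Of 10 known targets of IL-23, IL-6 and STAT3 in T cells, 9 were tested (median log2 difference 0.24). In ILC3, 3 were higher (6.46% of all genes tested) and 0 lower (7.21%). These 3 were the nuclear receptor gene Rora (log2 difference 3.47, edgeR adjusted p = 0.00831), the IL-1 receptor gene Il1r1 (4.63, 0.0162) and the chemokine receptor gene Ccr6 (2.93, 0.0215). Il1r1 is also among the 7 ILC3 markers. Ccr6 was no longer called when ILC3 replicate 1 (edgeR adjusted p = 0.0716), ILC3 replicate 2 (0.0572) or CD4 T replicate 1 (0.0987) was left out. Leaving out CD4 T replicate 2 gave log2 differences of 4.21 for Rora and 6.36 for Il1r1, and leaving out replicate 1 gave 3.86 for Il1r1.

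The IL-6 and IL-27 receptors share gp130, the product of Il6st. Il6st was lower in ILC3, Il6ra was at or near 0 there, and Il27ra was not called. Il6ra (chr3:89869324-89913196, minus strand), the chain that binds IL-6, had 1, 0 and 0 counts in ILC3, against 660 and 104 counts in CD4 T. In CPM this was 0.0361, 0 and 0 in ILC3, against 26.2 and 5.63 in CD4 T. Every CD4 T library lay far above every ILC3 library, and CD4 T replicate 1 held most of the signal. The ratio of CD4 T over ILC3, which runs the other way from the fold changes, was 1057 with an exact 95% counting interval of 189 to 41791 (edgeR adjusted p = 0.0096). Without CD4 T replicate 1 the call of Il6ra was lost (edgeR adjusted p = 0.0821), and it held under the other 13 alternatives. Il6ra overlaps the gene model Gm46811, and Il10ra the microRNA gene Mir7086, so counts in the shared stretches are uncertain.

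Il6st (chr13:112464070-112506860, plus strand) had 5.38, 0.897 and 1.46 CPM in ILC3, against 19.3 and 30.6 CPM in CD4 T. The groups did not overlap, and ILC3 replicate 1 was the highest of its group. The log2 difference was -3.26 (SE 0.838, edgeR adjusted p = 0.0491), just inside the threshold. Il6st was no longer called without ILC3 replicate 2 (edgeR adjusted p = 0.0998) or 3 (0.101), nor without CD4 T replicate 1 (0.12) or 2 (0.13). Without ILC3 replicate 1 it was -4.41 (edgeR adjusted p = 0.0341).

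Il27ra (chr8:84030286-84042600, minus strand), the chain specific for IL-27, had 11.7, 16.3 and 9.47 CPM in ILC3, against 18.03 and 23.4 CPM in CD4 T. The ranges lay side by side without overlap, and the log2 difference of -0.73 (SE 0.439) missed the threshold (edgeR adjusted p = 0.293, and 0.124 to 0.59 over the alternatives). Per kb of exon, Il27ra exceeded its partner Il6st in every library. The ratio was 6.91, 57.8 and 20.6 in ILC3, against 2.97 and 2.43 in CD4 T, and all ILC3 values were above both CD4 T values. Il27ra overlaps Palm3 on the genome, so counts in the shared stretch are uncertain.

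The 10 myeloid markers had 7 members called lower in ILC3 (7.21% of all genes tested) and 1 called higher (6.46%). The higher one was Zbtb46, a factor of dendritic cells, at 36.4, 20.9 and 44.1 CPM in ILC3, against 1.51 and 1.25 CPM in CD4 T (log2 difference 4.61, edgeR adjusted p = 0.00606). Csf1r, a receptor of macrophages and monocytes, had 0.686, 0.769 and 3.39 CPM in ILC3, against 222 and 102 CPM in CD4 T. Of the same 10 markers, 3, 5 and 4 were at 0 in the ILC3 libraries, Clec10a and Cd33 in all 3 of them, and none was at 0 in CD4 T. The part of such cells in the Il6ra and Il6st values was not tested. In the rest of the IL-6 family, 5 of 10 genes were tested (median log2 difference -3.36). In ILC3, 1 was higher (6.46% of all genes tested) and 0 lower (7.21%). The 1 was the ligand Il6, at 21.1, 14.2 and 37.1 CPM in ILC3, against 2.66 and 3.95 CPM in CD4 T (log2 difference 2.87, SE 0.611, edgeR adjusted p = 0.0305). Il6 was no longer called when ILC3 replicate 1 (0.0792), 2 (0.051) or 3 (0.0804) or CD4 T replicate 1 (0.122) was left out, or with library size alone (0.0546).

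**Figure D3:**
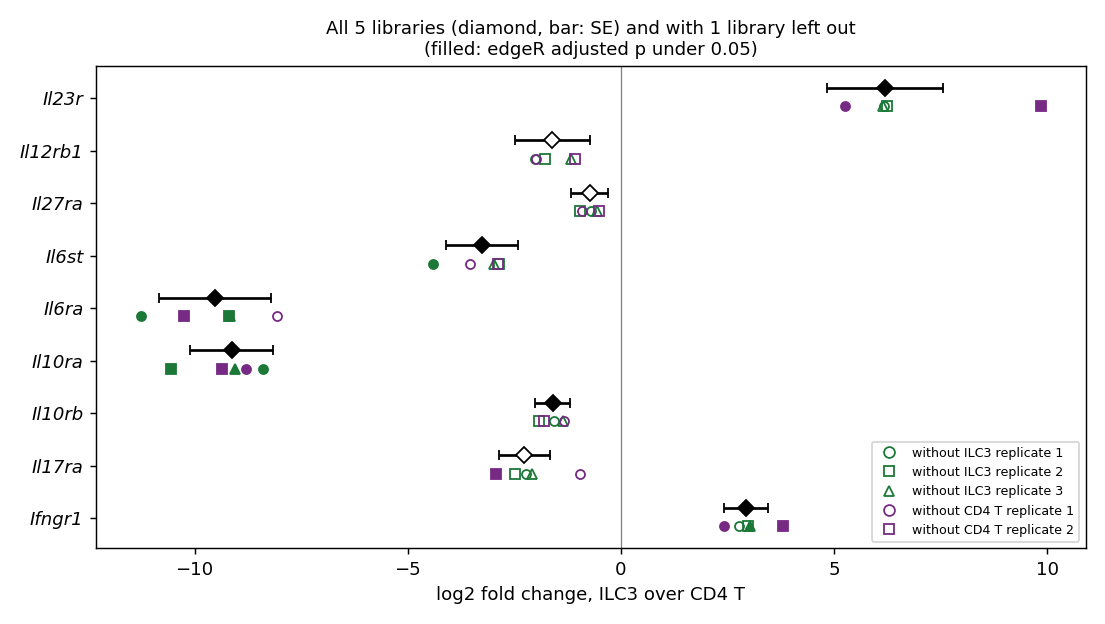
Log2 fold changes of ILC3 over CD4 T for the 9 tested chains, with all 5 libraries (diamonds, bars for SE) and with each library left out in turn; filled symbols have an edgeR adjusted p under 0.05. Only Il10ra is filled in every position, and the log2 fold change of Il17ra is -0.95 without CD4 T replicate 1.

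The IL-10 receptor differed in both of its chains, and most in the chain that is specific for IL-10. Il10ra (chr9:45253837-45269149, minus strand), which binds IL-10, had 0, 3 and 1 counts in ILC3, or 0, 0.192 and 0.0585 CPM, against 1297 and 653 counts, or 51.4 and 35.4 CPM, in CD4 T. The ILC3 values were at or below what a count of 0 allows, while both CD4 T libraries were well above it. The log2 difference was -9.13 (SE 0.969, edgeR adjusted p = 0.00423), and Il10ra was called in all 14 alternatives (adjusted p up to 0.0279). The fitted difference was -8.40 with ILC3 replicate 1 left out and -10.5 with ILC3 replicate 2 left out. Il10ra passed the filter of the main fit through its CD4 T counts only. The alternatives reuse the same libraries, so they are no independent support for the call. From the summed counts of 4 in ILC3 and 1950 in CD4 T, the ratio of CD4 T over ILC3 was 674, with an exact 95% counting interval of 263 to 2477.

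Il10rb (chr16:91406157-91425834, plus strand), the chain shared by the receptors of IL-10, IL-22 and the lambda interferons, had 23.4, 35.1 and 16.0 CPM in ILC3, against 87.6 and 62.8 CPM in CD4 T. It was thus clearly counted in every library, and the groups did not overlap. The log2 difference was -1.60 (SE 0.401, edgeR adjusted p = 0.0466). Without any 1 of the 5 libraries the call was lost (edgeR adjusted p from 0.053 without CD4 T replicate 2 to 0.186 without CD4 T replicate 1).

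In the rest of the IL-10 family, 4 of 10 genes were tested (median log2 difference -2.97). In ILC3, 1 was higher (6.46% of all genes tested) and 1 lower (7.21%). The ligand Il10 had 1.98, 4.29 and 5.09 CPM in ILC3, against 286 and 334 CPM in CD4 T (log2 difference -6.36, SE 0.485, edgeR adjusted p = 0.00156). Il10 and the chain that binds it were thus both low in ILC3 and both present in the CD4 T libraries. Il22 was higher in ILC3, at 20221 ± 1108 CPM in ILC3, against 77.4 ± 90.6 CPM in CD4 T (log2 difference 8.03, SE 1.22, edgeR adjusted p = 0.0117). With CD4 T replicate 2 left out, Il22 differed by 10.6 on the log2 scale, and with replicate 1 left out by 7.16. Il22ra1, the chain that pairs with Il10rb to bind IL-22 and is known from epithelial cells, had no count in any library.

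Some markers of other cell types were lower in ILC3 as well. Siglech, known from plasmacytoid dendritic cells, had 0.0361, 0.0641 and 0.234 CPM in ILC3, against 745 and 814 CPM in CD4 T, and Foxp3, the factor of regulatory T cells, had 1 count over all ILC3 libraries and 63.0 and 65.7 CPM in CD4 T. The 5 regulatory T cell markers had 3 members called lower in ILC3 (7.21% of all genes tested) and 1 called higher (6.46%). The higher one was Il2ra, a chain of the IL-2 receptor, at 490, 380 and 365 CPM in ILC3, against 31.6 and 65.8 CPM in CD4 T (log2 difference 3.08, edgeR adjusted p = 0.0101, and 3.72 with CD4 T replicate 2 left out). The 5 summed to 579 to 648 CPM in ILC3, most of it Il2ra, against 709 to 1298 CPM in CD4 T. The part of either cell type in the Il10ra and Il10rb values was not tested. The 5 genes whose pattern over the 5 libraries was nearest to that of Il10ra among 4925 candidates were Gpm6b, Il21r, Dntt, Cd33 and Grn. Their root-mean-square difference from Il10ra in centred log2 CPM was 0.119 for Gpm6b, 0.245 for Il21r and at most 0.38. These log2 values had 0.5 CPM added. In ILC3, Il10ra, Gpm6b, Dntt and Cd33 lay below 0.5 CPM, so their likeness rests largely on this constant and on the 2 CD4 T libraries. For Il23r the nearest were Serpinb1a at 0.274, Nrgn at 0.377, the T cell receptor gamma constant genes Trgc1 and Trgc4, and Car2 at 0.682. Serpinb1a had 1350, 1190 and 1093 CPM in ILC3, against 1.59 and 49.1 CPM in CD4 T. The gamma constant genes resemble each other, so the counts of Trgc1 and Trgc4 are uncertain.

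Il17ra (chr6:120463181-120483731, plus strand), the chain shared by the receptors of the IL-17 family, had 11.04, 15.3 and 8.83 CPM in ILC3, against 89.6 and 22.7 CPM in CD4 T. The groups did not overlap, although CD4 T replicate 2 lay nearer to the ILC3 libraries than to CD4 T replicate 1. The log2 difference of -2.26 (SE 0.593) missed the threshold (edgeR adjusted p = 0.0513). It was -0.95 (0.319) with CD4 T replicate 1 left out, and -2.92 with CD4 T replicate 2 left out, which passed (0.0104). It also passed with library size alone (0.0279), with either other filter (0.00516 and 0.047), with robust dispersion (0.0452) and in DESeq2 (0.00401). Of the 10 myeloid markers, 8 were higher in CD4 T replicate 1 than in replicate 2, such as Csf1r (222 and 102 CPM) and Itgam (60.9 and 18.9 CPM). The other 2 were lower there, Lyz2 at 659 and 1592 CPM and Cd14 at 172 and 201 CPM, and the sum of the 10 was 1830 and 2413 CPM. Il6ra was 26.2 and 5.63 CPM in the same libraries. The relation of these values to Il17ra was not tested.

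Il17rc, the partner of Il17ra in the receptor of IL-17A and IL-17F, was low throughout, at 0.361, 1.47 and 1.93 CPM in ILC3, against 0.0793 and 0.487 CPM in CD4 T (log2 difference 2.13, edgeR adjusted p = 0.393). Per kb, Il17ra over Il17rc was 9.44, 3.20 and 1.41 in ILC3, against 348 and 14.4 in CD4 T. The 348 rests on 2 counts of Il17rc, and its exact 95% counting interval is 96.3 to 2879. The rest of the IL-17 family had 6 of 11 genes tested (median log2 difference 1.58). In ILC3, 2 were higher (6.46% of all genes tested) and 0 lower (7.21%). The ligand Il17f averaged 2713 ± 691 CPM in ILC3, against 152 ± 166 CPM in CD4 T (log2 difference 4.16, SE 0.926, edgeR adjusted p = 0.0342). Il17re, a receptor chain for IL-17C, had 7.47, 5.96 and 9.94 CPM in ILC3, against 0.832 and 0.921 CPM in CD4 T (log2 difference 3.14, SE 0.807, edgeR adjusted p = 0.0488). The Il17re call was lost without any 1 of the 5 libraries (0.0756 to 0.134), with library size alone (0.0876), upper quartile factors (0.0502), no filter (0.0511) and limma-voom (0.0605). Il17f was no longer called without ILC3 replicate 1 (0.0854), 2 (0.0735) or 3 (0.0728), and it differed by 6.32 on the log2 scale with CD4 T replicate 2 left out and by 3.34 with replicate 1 left out.

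Ifngr1 (chr10:19591949-19610229, plus strand), the chain that binds interferon gamma, was the most abundant of the 10 in both groups. It had 3931, 3053 and 2766 CPM in ILC3, against 236 and 612 CPM in CD4 T. Each ILC3 library lay several fold above both CD4 T libraries. The log2 difference was 2.94 (SE 0.514, edgeR adjusted p = 0.0171). Ifngr1 was no longer called without ILC3 replicate 1 (0.0591) or 2 (0.058). With CD4 T replicate 2 left out Ifngr1 differed by 3.80 on the log2 scale, with replicate 1 left out by 2.41, and both were called.

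Its signalling partner Ifngr2 was not called. It had 54.1, 41.1 and 58.0 CPM in ILC3, against 57.1 and 33.8 CPM in CD4 T, and the groups overlapped (log2 0.17, SE 0.349, edgeR adjusted p = 0.784). Its sign turned when only library size was used for scaling, and when CD4 T replicate 2 was left out. Per kb, Ifngr1 exceeded Ifngr2 by 96.2, 98.2 and 63.0 times in ILC3, against 5.46 and 23.9 times in CD4 T. On the log2 scale this was 6.39 ± 0.361 in ILC3 (SD, n = 3) and 3.51 ± 1.51 in CD4 T (SD, n = 2). The ligand Ifng, named after its values were seen, had 25.0, 33.2 and 11.6 CPM in ILC3, against 19.0 and 116 CPM in CD4 T, with overlapping groups.

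Per kb of exon, the order of mean levels in ILC3 was Ifngr1 (1141 ± 213 CPM per kb), Il23r (351 ± 21.7), Il10rb (6.52 ± 2.53), Il27ra (3.58 ± 1.00), Il17ra (1.35 ± 0.38), Il12rb1 (0.739 ± 0.465) and Il6st (0.232 ± 0.22), followed by Il12rb2, Il10ra and Il6ra. A wide gap separated the first 2 from the rest. Il10rb and Il27ra overlapped over their libraries, as did each pair of neighbours from Il17ra down, so those orders are not resolved. In CD4 T the order was Ifngr1 (149 ± 93.4 CPM per kb), Il10rb (19.7 ± 4.62), Il10ra (12.4 ± 3.24), Il17ra (6.48 ± 5.46), Il27ra (5.93 ± 1.09), Il23r (4.78 ± 6.22), Il12rb1, Il6st, Il12rb2 and Il6ra. From Il10ra down, all neighbours overlapped.

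The kinases, STAT factors and SOCS inhibitors that serve these receptors had 2 of 7 members higher and 0 lower in ILC3. Over all genes tested, 6.46% were higher and 7.21% lower. The median log2 difference of the 7 was 0.08. Stat4, the factor activated by IL-12 and IL-23, had 541 ± 92.4 CPM in ILC3, against 113 ± 54.8 CPM in CD4 T (log2 difference 2.25, SE 0.418, edgeR adjusted p = 0.0202). Socs1, a feedback inhibitor of JAK kinases, was higher by 3.08 (SE 0.452, edgeR adjusted p = 0.0111), or by 3.72 with CD4 T replicate 1 left out. Stat4 was no longer called without ILC3 replicate 1 (0.0658), 2 (0.058) or 3 (0.0578) and on library size scaling (0.0525), and it differed by 2.87 with CD4 T replicate 2 left out.

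**Figure D4:**
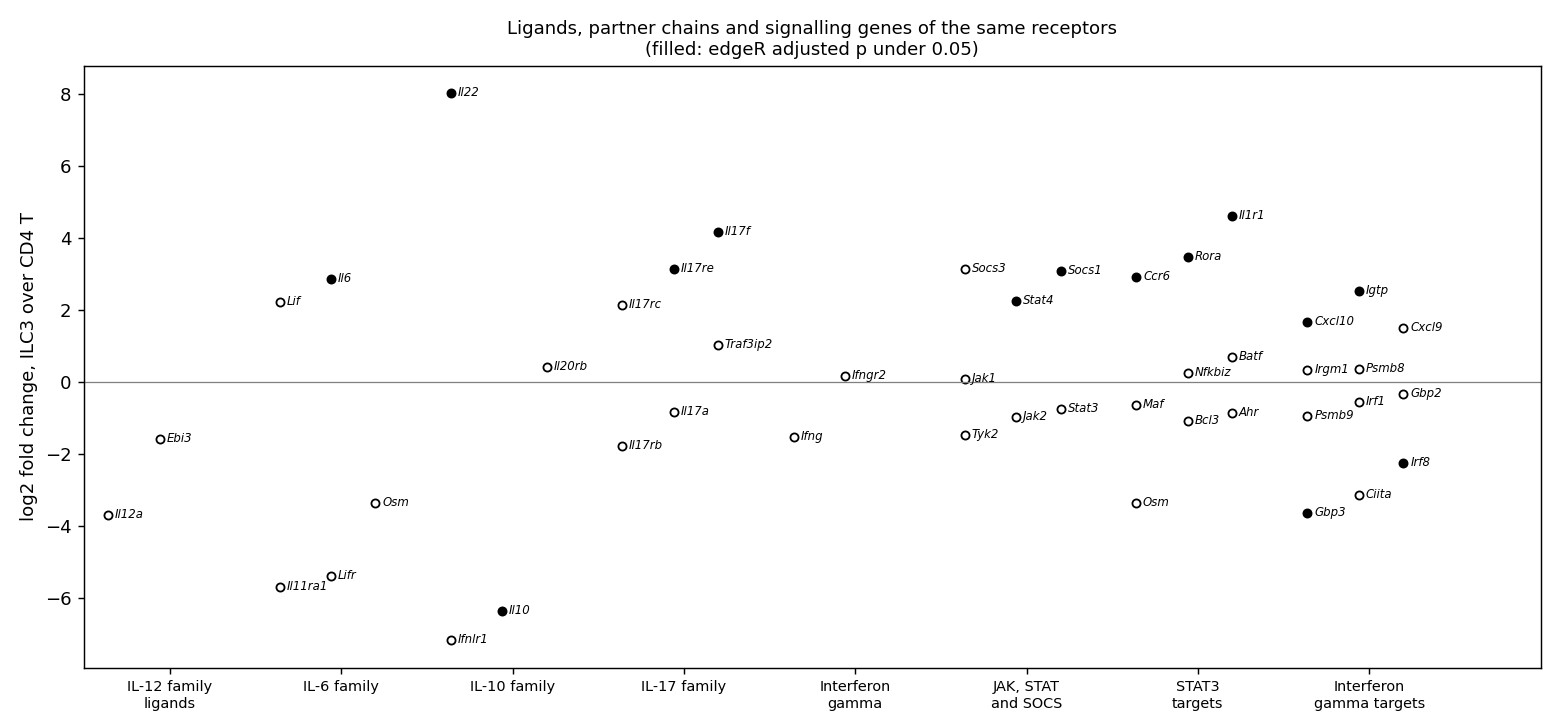
Log2 fold changes of ILC3 over CD4 T for tested genes of the 8 pathway lists, each column a list; filled points have an edgeR adjusted p under 0.05. Il22 lies at 8.03 and Il10 at -6.36 in the IL-10 family; fitted values of genes with no count in ILC3, such as Ifnlr1, depend on the prior count and are no measure of size.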

How the data were processed

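Messenger RNA libraries were made with the Clontech SMARTer Ultra Low Input kit, V4, per the labels' protocols. The values are whole-number counts per NCBI gene, deposited by the authors without normalization. The submitters' processing notes name CASAVA 1.8.2, STAR 2.3.0 and mm10. How reads were assigned to genes, and whether by strand, is not given in the sources used here. Symbols and positions came from RefSeq GRCm38.p6, the build of mm10, and matched 25275 of 27179 identifiers; exon lengths came from GENCODE M21 of the same build.

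Counts were filtered with filterByExpr, scaled with TMM and fitted with edgeR 4.0.16 (quasi-likelihood, 3 residual degrees of freedom, no covariate) in R 4.3.3, ILC3 over CD4 T. Benjamini-Hochberg adjustment ran over all 12747 genes tested, and 0.05 was the threshold. SE is the log2 fold change divided by the square root of F. Ratios of summed counts used TMM-scaled library sizes. The alternatives scaled by library size alone, by upper quartiles or by DESeq2 size factors, or used no filter, 1 CPM in 2 libraries, DESeq2 1.42.0, limma-voom (limma 3.58.1), robust dispersion, the replicate number as a block, and each library left out. With 1 CD4 T library left, it is assumed to vary as the other libraries do.

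The receptor chains and the lists were chosen with earlier results of these data known. The text names all 10 chains, their partners Ifngr2, Il17rc and Il22ra1, up to 4 called genes in each direction from each pathway list or else its most abundant gene, the highest or at-0 markers, and the 5 genes nearest in pattern to Il23r and to Il10ra (log2 of CPM plus 0.5, mean of at least 20 CPM). Other genes are given beside the result they touch and were chosen after their values were seen. A gene of the STAT3 target list and one of the signalling list are not reported here, and the counts and medians of these lists are over the others.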

Additional observations from a re-analysis of the deposited data

How the results depend on the processing

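Of the 10 receptor chains, 2 were higher and 4 lower in ILC3. With robust dispersion 1 was higher. With 1 library left out the number higher ran from 0 to 2 and the number lower from 1 to 3. Of 126 values of the 9 tested chains under alternatives, 100 kept their side of the threshold, 20 lost it, 6 gained it and 0 changed sign. Il10ra kept its call in every alternative, and Il12rb1 and Il27ra were called in none. The alternatives reuse the same libraries and are no independent support. Over all genes, 824 were higher and 919 lower. These were 384 and 1502 with library size alone, 1250 and 1378 with no filter, 1914 and 1858 in DESeq2, and 1317 and 1402 in limma-voom. With 1 library left out they ran from 269 to 1712 and from 306 to 960. The cause of these changes was not tested, and the fits with 1 library left out also rest on fewer libraries.

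The log2 difference of Ifngr2, 0.17 with all libraries, was -0.32 when scaled by library size alone; with 1 library left out it ran from -0.15 (CD4 T replicate 2) to 0.60 (CD4 T replicate 1). The log2 ratio of Il23r over Il12rb1 in CD4 T was -2.04 and 1.64 in the single libraries. With the longest RefSeq-matched transcript as the length, levels per kb were 3.23 for Il12rb1 in CD4 T, 13.4 and 40.6 for Il10rb in ILC3 and CD4 T, 4.69 and 7.79 for Il27ra in ILC3 and CD4 T, and 1539 for Ifngr1 in ILC3. The log2 ratio of Ifngr1 over Ifngr2 in ILC3 was then 6.80, and Il10rb and Il27ra no longer overlapped in ILC3.

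The replicate numbers of the labels were not shown to pair libraries. Deviations from the group means correlated across genes at -0.0392 for the libraries numbered 1 and -0.0439 for those numbered 2. With 2 CD4 T libraries, the deviations of 1 mirror those of the other, so the 2 values are not separate checks. With the replicate block, 0 receptor chains were higher and 2 lower (Il6ra and Il10ra), and over all genes 215 were higher and 305 lower. With this block Il23r (edgeR adjusted p = 0.0547), Ifngr1 (0.0931), Il6st (0.150) and Il10rb (0.171) lost their calls. So did Il6 (0.112), Il17f (0.0986), Il17re (0.191), Stat4 (0.107), Ccr6 (0.0599), Cxcl10 (0.164) and Irf8 (0.0634). Il12rb2, with 7 counts over ILC3, is at the limit of what this depth can show.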

Other observations

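Known targets of interferon gamma, whose receptor chain Ifngr1 was higher in ILC3, went both ways. Of 11 genes, 2 were higher (6.46% of all genes tested) and 2 lower (7.21%) in ILC3, with a median log2 difference of -0.34. Igtp, a GTPase of cell-autonomous defence, had 244, 243 and 214 CPM in ILC3, against 38.5 and 43.0 CPM in CD4 T (log2 difference 2.52, SE 0.284, edgeR adjusted p = 0.00503). The chemokine gene Cxcl10 had 410, 749 and 587 CPM in ILC3, against 176 and 189 CPM in CD4 T (log2 difference 1.67, SE 0.359, edgeR adjusted p = 0.0311). Gbp3, a guanylate-binding protein, had 20.02, 6.79 and 7.25 CPM in ILC3, against 170 and 117 CPM in CD4 T (log2 difference -3.65, SE 0.552, edgeR adjusted p = 0.0117). Irf8, a factor of myeloid and plasmacytoid dendritic cells, had 14.4, 6.02 and 11.4 CPM in ILC3, against 60.2 and 41.6 CPM in CD4 T (log2 difference -2.26, SE 0.453, edgeR adjusted p = 0.0257). In each of the 4 the groups did not overlap, which was also so for 8 of the 11 genes and for 55% of all genes tested. Igtp kept its call without any 1 library. Cxcl10 lost it without ILC3 replicate 2 (edgeR adjusted p = 0.095) or 3 (0.0823), without CD4 T replicate 1 (0.0968) and with library size alone (0.0682). Irf8 lost it without ILC3 replicate 1 (0.0549), 2 (0.0649) or 3 (0.0688) and without CD4 T replicate 1 (0.114), and Gbp3 without CD4 T replicate 1 (0.0522). Without ILC3 replicate 1 the log2 difference of Gbp3 was -4.36.

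In the IL-6 family outside the 10 chains, a receptor and a ligand missed the threshold; both were chosen after their values were seen. Lifr, the receptor of leukemia inhibitory factor and a partner of gp130, had 3.57, 0 and 0.0585 CPM in ILC3, against 61.4 and 45.8 CPM in CD4 T (log2 difference -5.39, edgeR adjusted p = 0.0657). Osm, the ligand oncostatin M, had 3.43, 1.86 and 4.27 CPM in ILC3, against 61.9 and 3.52 CPM in CD4 T (log2 difference -3.36, edgeR adjusted p = 0.0774), and its groups overlapped.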
